A study of Mus musculus with 4 samples.

Results

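The Hox genes of mouse dermal white adipose tissue (dWAT) are described here, chosen as every gene whose symbol is Hoxa, Hoxb, Hoxc or Hoxd followed by a number only. There were 39 such genes among the 22913 listed, and none of them was chosen for its level. They lie in 4 clusters: 11 Hoxa genes on chr6:52155590-52260880 (minus strand), 10 Hoxb genes on chr11:96194316-96368256 (plus strand), 9 Hoxc genes on chr15:102921103-103036852 (plus strand) and 9 Hoxd genes on chr2:74668310-74765142 (plus strand), all on GRCm38.

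Hox genes encode transcription factors that bind DNA through a homeodomain and tell cells where along the head-to-tail axis, or along a limb, they are. Within a cluster the genes are numbered by paralogue group, and low numbers are used toward the head and high numbers toward the tail and the limb tips. Adult skin fibroblasts and fat depots keep part of the Hox pattern of their site of origin, and Hoxc13 has a separate known role as a regulator of hair shaft keratin genes. Here paralogue groups up to 3 are called anterior, 4 to 8 central, and 9 and above posterior.

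RNA sequencing was carried out on dWAT that had been microdissected from the skin of C57BL/6 mice, with 1 library for each of 4 groups. OTD came from old mice (18 months) in telogen, the resting phase of the hair cycle, and YTD from young mice (2 months) in telogen. OAD and YAD came from old and young mice, respectively, in anagen, the growth phase, which had been set off by depilation, so hair cycle phase and plucking cannot be told apart. The sample titles and the treatment text agree on these ages, whereas the age field gives 18 months for YTD and 2 months for OAD; the titles were followed.

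Levels are FPKM (fragments per kilobase of transcript, scaled to the mapped fragments of the library), a scale that corrects for length, so that members can be set beside each other. The depth of the libraries, estimated from the steps between low values, was about 17100000, 16400000, 21800000 and 22900000 fragments for OTD, YTD, OAD and YAD, and 95% intervals below cover the counting of fragments only. With 1 library a group there is no replicate, no test between groups and no p-value, and the spread between mice is unknown. A change is the difference of log2(FPKM + 1), and a gene is counted as changed when it is at least 1 in size. All 15 adipocyte markers were above 0 in each library, with Adipoq at 76.5 to 427 FPKM. So were all 19 skeletal muscle markers, with Acta1 at 2919 to 27442 FPKM, and all 15 hair shaft markers found in the data. Adipocyte markers together held 0.66%, 0.56%, 0.36% and 0.30% of all FPKM in OTD, YTD, OAD and YAD. Skeletal muscle markers held more, at 5.58%, 8.78%, 2.04% and 1.79% in the same order. Genes of the mitochondrial genome held 52.7% and 44.7% of the summed FPKM in OTD and YTD, and 18.3% and 14.4% in OAD and YAD.

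The homeobox, the stretch of 60 codons that encodes the homeodomain, was found in all 39 members. It is shown for the 2 members with the widest differences between phases, Hoxc13 (chr15:102927210-102927389, plus strand) and Hoxb8 (chr11:96284174-96284353, plus strand), from the GENCODE M21 transcripts on GRCm38. The capitals mark codons 42 to 58 of each homeobox, which encode the recognition helix that lies in the major groove of DNA.
Hoxc13: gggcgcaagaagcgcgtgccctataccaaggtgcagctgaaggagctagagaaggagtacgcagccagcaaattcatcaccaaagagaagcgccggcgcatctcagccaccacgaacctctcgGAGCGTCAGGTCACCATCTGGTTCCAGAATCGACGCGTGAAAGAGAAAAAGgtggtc
Hoxb8: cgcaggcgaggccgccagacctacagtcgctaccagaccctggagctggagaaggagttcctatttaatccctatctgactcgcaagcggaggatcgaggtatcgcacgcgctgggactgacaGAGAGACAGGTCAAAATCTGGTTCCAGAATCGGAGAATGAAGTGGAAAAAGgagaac
Base by base, Hoxc13 matched Hoxb8 at 51.7% of the 180 positions. Hoxc13 shared 73.9 to 77.2% with the 3 other group 13 members and a median of 54.4% with the remaining 35. Over the whole family, the median identity was 80.6% for the 42 pairs of 1 paralogue group and 60.6% for the 699 other pairs.

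Most members were present at low to moderate levels. Of the 39, 28 reached an FPKM of 1 in at least 1 library and 22 in all 4; 31 were above an estimated 3 fragments in at least 1 library. Hoxb13, Hoxd12 and Hoxd13, used in the tail and digits, were listed at 0 in every library. Another 8 stayed below 1 FPKM throughout. The highest value among them was 0.914 FPKM for Hoxa2 in YTD, while Hoxa11, Hoxa13, Hoxb1, Hoxc11, Hoxd1 and Hoxd11 did not pass 0.208 (Hoxb1 in YAD).

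In telogen the Hoxd cluster held the largest part of the summed Hox level, with 66.5 of 167 FPKM in OTD (39.8%) and 80.2 of 197 FPKM in YTD (40.7%). Hoxb held the smallest part, 15% in OTD and 11.9% in YTD. In anagen the shares differed: Hoxb held 131 of 330 FPKM in OAD (39.6%) and 148 of 368 FPKM in YAD (40.3%), Hoxc held 44.5% and 45.2%, Hoxa 6.31% and 6.74%, and Hoxd 9.65% and 7.72%. Hoxc13 alone carried most of the Hoxc sum in anagen. With Hoxc13 left out, Hoxc fell to 11.8% of the sum in OAD and 10.04% in YAD, and Hoxb stood at 62.9% and 66.2%. Shares within a library do not depend on how libraries are scaled to each other.

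**Figure D1:**
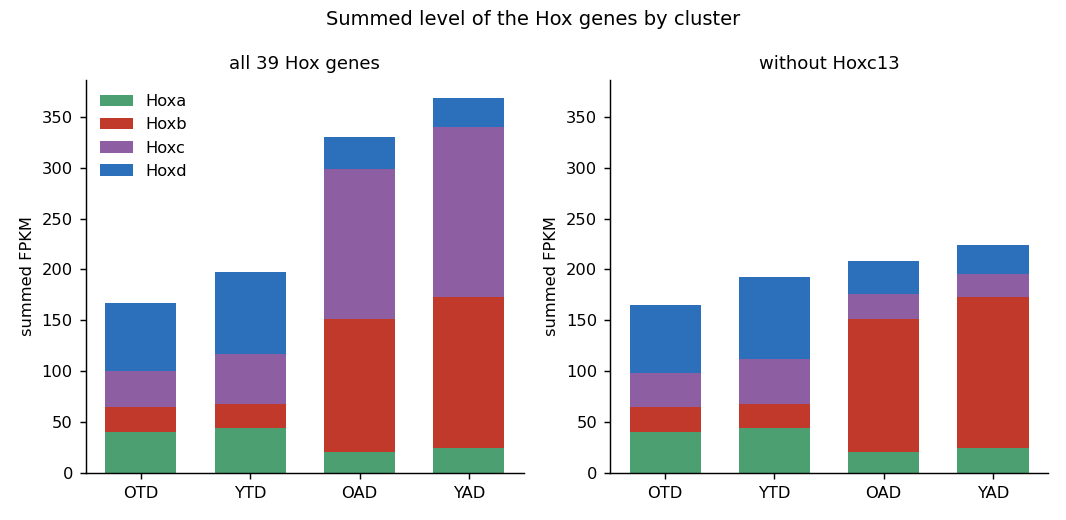
Summed FPKM of the Hox genes in each library, stacked by cluster, for all 39 genes (left) and without Hoxc13 (right). Without Hoxc13 the total runs from 165 to 224 FPKM, and the Hoxb part is 25.1 and 23.5 FPKM in OTD and YTD but 131 and 148 FPKM in OAD and YAD.

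By paralogue group, the telogen libraries peaked at groups 8 and 9, genes used along the trunk. Group 8 held 24.2% and group 9 held 25.5% of the Hox sum in OTD, and 25.9% and 23.7% in YTD. In anagen, with Hoxc13 left out, posterior genes held 7.50% in OAD and 6.45% in YAD, against 31.9% in OTD and 29.5% in YTD. Anterior genes held 19.2% and 21.8% in OAD and YAD, against 5.54% and 6.16% in OTD and YTD. The central groups were the largest part in each library, between 62.6 and 73.3% without Hoxc13. Hoxb has a large share of the anterior and central genes with high values and few posterior ones, so cluster and region cannot be told apart in these sums.

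**Figure D2:**
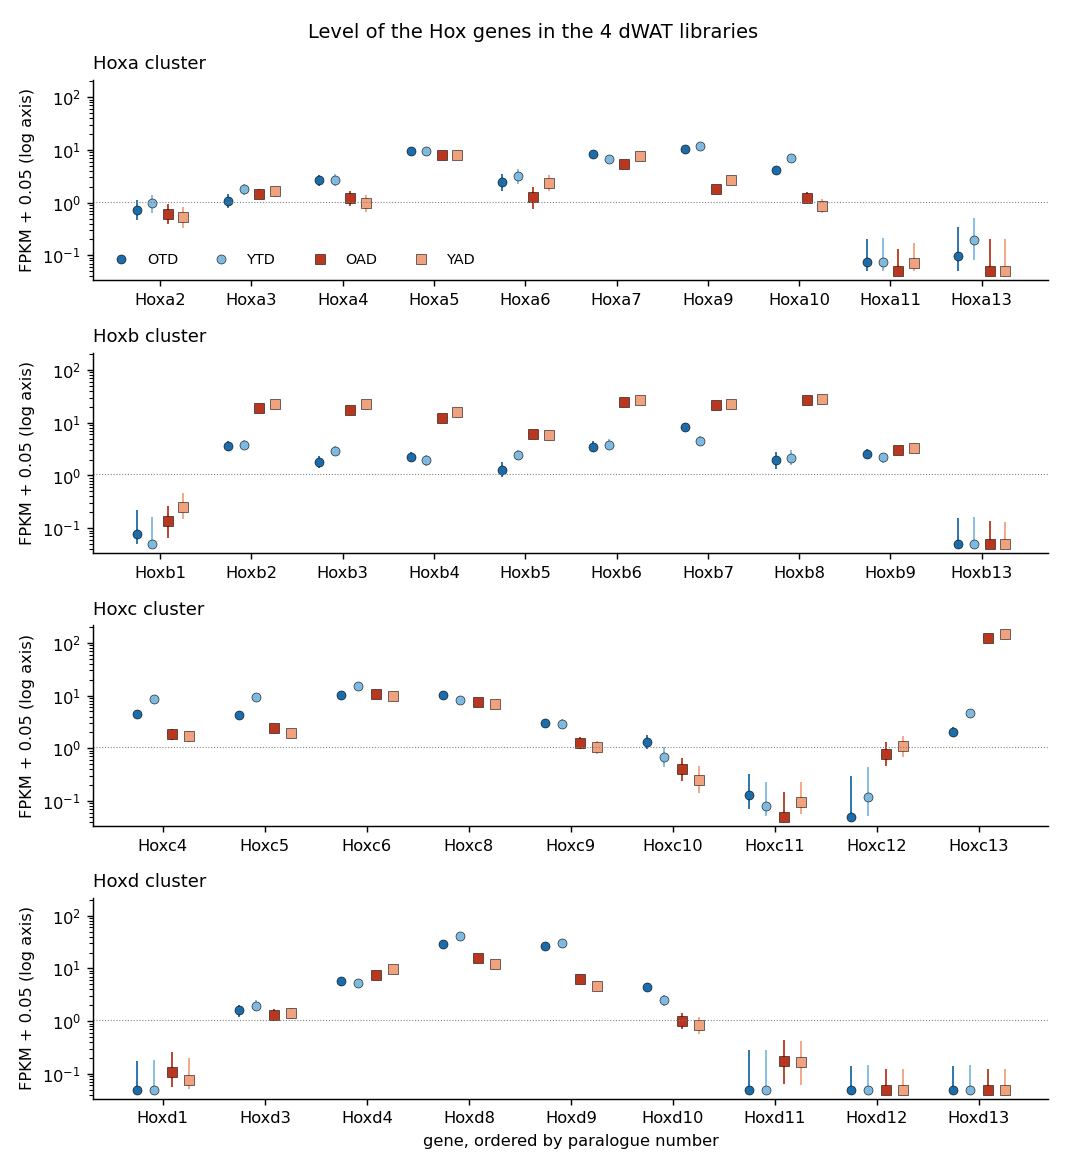
FPKM of the Hox genes reported here (vertical axis FPKM + 0.05, log scale) in the 4 libraries, in 1 panel per cluster and in order of paralogue number. Points are single libraries, vertical lines are 95% counting intervals, and the dotted line marks 1 FPKM. Hoxb2 to Hoxb8 sit higher in OAD and YAD than in OTD and YTD, and Hoxa9, Hoxa10, Hoxd9 and Hoxd10 lower.

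The comparison of anagen with telogen asks how the Hox pattern of the dissected tissue differs between hair cycle phases. In young mice, 7 of 36 members with a value were higher in anagen by at least 1 and 6 were lower, where 32.7% of all genes changed, 16.1% upward and 16.7% downward. In old mice 8 of 36 were higher and 4 lower, where 31.7% of all genes changed, 16.1% upward and 15.6% downward. These counts over the whole family are near the background, and the member medians of -0.14 (young) and -0.09 (old) stood beside 0.02 and 0.01 for all genes. The clusters went different ways. In Hoxb, 6 of 9 members with a value were higher in young mice and 7 of 9 in old mice, with medians of 2.31 and 2.04 as deposited. None was lower under any scaling run. Of the members of the other clusters, only Hoxc13 was higher by at least 1 as deposited. Rescaling to TPM, which sets every library to the same total, moved the median phase change of all expressed genes from 0.03 to 0.76 in young and from 0.05 to 0.58 in old mice, so values near 0 below depend on the scaling.

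Hoxb8, a trunk gene whose loss makes mice groom to excess, had the widest difference in its cluster. It was at 1.88 FPKM in OTD (95% interval 1.28 to 2.68) and 2.13 in YTD (1.5 to 2.995), against 26.6 in OAD (24.3 to 29.0) and 28.0 in YAD (25.7 to 30.4). The anagen libraries were both far above the telogen libraries, and the ages were alike within the counting intervals. The level was 13.2-fold higher in anagen in young mice (9.24 to 18.9) and 14.2-fold higher in old mice (9.80 to 20.9).

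Its neighbours on the anterior side were also higher in both anagen libraries than in both telogen libraries. Hoxb6 was at 3.46 FPKM in OTD and 3.80 in YTD, against 24.7 in OAD and 27.5 in YAD, a 7.24-fold difference in young and 7.12-fold in old mice. Hoxb7 was at 8.26, 4.46, 21.7 and 22.6 FPKM in OTD, YTD, OAD and YAD. Hoxb7 was higher in OTD than in YTD, and it differed 5.06-fold between phases in young and 2.62-fold in old mice. Hoxb5 was at 1.25 FPKM in OTD and 2.42 in YTD, against 6.12 in OAD and 5.72 in YAD. Its change was 0.98 in young mice, just under the threshold, and 1.66 in old mice.

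Further toward the anterior end, Hoxb4, which expands blood stem cells when supplied in excess, was at 2.23 FPKM in OTD and 1.90 in YTD, against 12.2 in OAD and 16.0 in YAD. Hoxb3 was at 1.79, 2.84, 17.03 and 22.3 FPKM in the same order of libraries. Hoxb2, a hindbrain gene, was at 3.62, 3.80, 19.3 and 22.8 FPKM. All 3 were several-fold higher in anagen at either age: 8.43-fold (young) and 5.50-fold (old) for Hoxb4, 7.87-fold and 9.54-fold for Hoxb3, and 5.99-fold and 5.33-fold for Hoxb2. The genes on either side of this run differed less. Hoxb9 was at 2.54 FPKM in OTD and 2.15 in YTD, against 2.99 in OAD and 3.28 in YAD, a change of 0.44 in young and 0.17 in old mice; in TPM its young change was 1.07. Hoxb1 did not pass 0.208 FPKM, and Hoxb13, which lies apart from the rest of the cluster, was listed at 0.

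The promoter of Hoxb8 is shown because it belongs to the member that differed most in this run, 250 bases before to 50 bases after the start (chr11:96281655-96281954, plus strand, RefSeq, GRCm38.p6). The capitals mark matches on either strand to TGATNNAT, a site that Hox and Pbx proteins can bind together, or to TTTATNG, a form preferred by posterior Hox proteins.
Hoxb8 promoter: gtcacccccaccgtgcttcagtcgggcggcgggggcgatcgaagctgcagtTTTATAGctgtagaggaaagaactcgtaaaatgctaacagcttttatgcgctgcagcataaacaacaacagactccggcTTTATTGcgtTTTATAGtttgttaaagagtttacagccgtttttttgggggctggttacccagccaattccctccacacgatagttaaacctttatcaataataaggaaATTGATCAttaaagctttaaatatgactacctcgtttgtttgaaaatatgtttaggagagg
This window held 1 match to TGATNNAT, 3 to TTTATNG and 2 to TATAAA, the TATA box letters, which overlap TTTATNG here. Of 24 promoters found for 22 members, 4 held TGATNNAT (Hoxa2, Hoxb1, Hoxb8 and Hoxd11), 4 held TATAAA and 2 held TTTATNG. The shares over all 32851 promoters of that length were 8.85%, 13.6% and 10.9%. Hox promoters held a median of 14.5 CpG, with a range of 4 to 45, against 7 over all promoters. These matches are letters in a window and say nothing of binding.

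Hoxc13 (chr15:102921103-102928814) had the widest difference of all members. It was at 2.00 FPKM in OTD (95% interval 1.58 to 2.50) and 4.60 in YTD (3.93 to 5.33), against 122 in OAD (119 to 125) and 144 in YAD (141 to 147). An estimated 78 and 174 fragments stood behind the telogen values and 5923 and 7262 behind the anagen values. It was the highest Hox gene of both anagen libraries and 31.3-fold higher in anagen in young mice (27 to 36.7) and 61.2-fold higher in old mice (48.9 to 77.5). Hoxc12, its neighbour in the cluster, was listed at 0 in OTD and was at 0.0690 FPKM in YTD, against 0.737 in OAD and 1.05 in YAD. With the 0 in OTD set to 3 fragments, Hoxc12 was 3.57-fold higher in anagen in old mice. The 95% counting interval of the ratio has its lower limit at 2.57, but it was computed with OTD at 0 fragments. It is therefore not an interval of the 3.57-fold value. The young telogen value of Hoxc12 rests on 1 fragment. The next gene, Hoxc11, stayed at or below 0.0826 FPKM in each library.

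A list of 10 other hair follicle genes, made up of regulators and Dsg4, differed in the same direction. All 10 of these genes were higher in anagen by at least 1 at either age, with a median change of 4.38 in young and 5.13 in old mice. Dlx3, a homeobox gene of the hair matrix, was at 1.495 FPKM in OTD and 6.89 in YTD, against 207 in OAD and 231 in YAD. Foxq1, which Hoxc13 is known to control in the hair medulla, was at 0.999, 0.886, 78.7 and 58.1 FPKM in these libraries. Msx2, another homeobox gene of the hair matrix, was at 0.830, 3.25, 109 and 120 FPKM. Of the 15 hair shaft genes, 15 were higher by at least 1 in young and 14 in old mice, and together they made up 0.00767% (OTD) and 0.0132% (YTD) of all FPKM in telogen, against 1.53% (OAD) and 1.84% (YAD) in anagen. No hair shaft gene was at 0 in any library. In bulk tissue fewer cells of a type and less RNA per cell cannot be told apart.

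**Figure D3:**
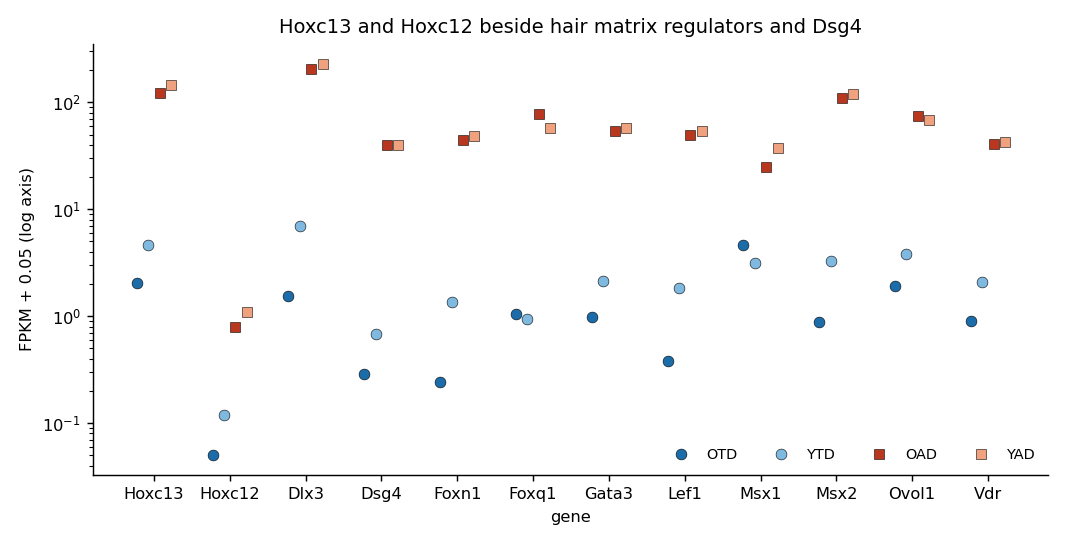
FPKM (vertical axis FPKM + 0.05, log scale) of Hoxc13, Hoxc12 and 10 other hair follicle genes (regulators and Dsg4) in the 4 libraries. Each point is 1 library. Every gene is higher in OAD and YAD than in OTD and YTD, with Hoxc13 at 122 and 144 FPKM against 2.00 and 4.60.

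The members lower by at least 1 in anagen belonged to the Hoxa, Hoxc and Hoxd clusters. Hoxd9 (chr2:74697727-74700208), a trunk and limb gene, was at 26.4 FPKM in OTD (95% interval 24.7 to 28.2) and 29.7 in YTD (27.9 to 31.7), against 6.30 in OAD (5.55 to 7.10) and 4.52 in YAD (3.90 to 5.20). Both telogen libraries were above both anagen libraries, 6.58-fold in young mice (5.64 to 7.73) and 4.19-fold in old mice (3.65 to 4.84). Hoxd8, the highest Hox gene in telogen, was at 28.5, 40.8, 15.8 and 12.0 FPKM in OTD, YTD, OAD and YAD. Hoxd10, which takes part in patterning lumbar motor neurons, was at 4.45, 2.43, 0.948 and 0.777 FPKM. The change of Hoxd8 was -1.68 in young and -0.81 in old mice, and that of Hoxd10 was -0.95 in young and -1.49 in old mice, so as deposited each passed the threshold at 1 age; in TPM Hoxd8 was at -0.88 in young mice, and whether the ages differ was not tested.

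Hoxa9, a gene of blood progenitors and of the posterior trunk, was at 10.6 FPKM in OTD (9.73 to 11.5) and 11.9 in YTD (11.0 to 12.9), against 1.73 in OAD (1.43 to 2.09) and 2.63 in YAD (2.26 to 3.05). Hoxa10, needed in the uterus, was at 4.19, 6.84, 1.20 and 0.811 FPKM in the same order. Both were lower in anagen at either age, Hoxa9 by 4.52-fold in young and 6.12-fold in old mice and Hoxa10 by 8.44-fold and 3.50-fold. Hoxc4 was at 4.35, 8.75, 1.78 and 1.65 FPKM in OTD, YTD, OAD and YAD. Hoxc5 was at 4.16, 9.21, 2.34 and 1.89 FPKM. For these neighbours of the neck and upper trunk the change as deposited passed the threshold in young mice, at -1.88 and -1.82, and was -0.94 and -0.63 in old mice, where Hoxc4 reached -1.18 in TPM without mitochondrial genes; the difference between ages was not tested.

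The remaining members above 1 FPKM changed by less than 1 between phases as deposited. Hoxa5, which patterns the lung and the upper trunk, was at 9.60, 9.38, 7.84 and 8.08 FPKM in OTD, YTD, OAD and YAD. Hoxa7 was at 8.46, 6.67, 5.43 and 7.72 FPKM. Hoxc6 was at 10.4, 15.1, 10.5 and 9.63 FPKM. These 3 had phase changes between -0.60 and 0.19. Hoxc8, a gene used to mark white fat depots, was at 10.05, 8.09, 7.59 and 7.02 FPKM. Hoxc9, another such gene, was at 3.004, 2.88, 1.21 and 0.987 FPKM. Hoxc10, known to hold back browning of subcutaneous fat, was at 1.28, 0.648, 0.353 and 0.201 FPKM. As deposited, these 3 were lower in anagen at both ages without reaching the threshold. In TPM without mitochondrial genes Hoxc9 and Hoxc10 reached -1.11 and -1.05 in old mice, and in TPM Hoxc8 was higher by 0.57 in young and 0.19 in old mice. As deposited, the 95% intervals of the phase ratio left out 1 for Hoxc9 and Hoxc10 at both ages and for Hoxc8 in old mice. Hoxd4 was at 5.61, 5.33, 7.33 and 9.60 FPKM, higher in anagen by 0.75 in young and 0.33 in old mice, and by 1.49 and 0.86 in TPM. Hoxd3 was at 1.54, 1.92, 1.27 and 1.35 FPKM. Hoxa4 was at 2.61, 2.67, 1.17 and 0.931 FPKM. The phase changes of Hoxa4 were -0.93 in young and -0.73 in old mice. Hoxa6 was at 2.45, 3.10, 1.23 and 2.34 FPKM, and Hoxa3, a gene of the thymus and parathyroid, was at 1.02, 1.76, 1.43 and 1.58 FPKM.

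Members of 1 paralogue group therefore did not move as a unit. In group 8, Hoxb8 was higher in anagen by 3.21 in young mice while Hoxc8 differed by -0.18 and Hoxd8 by -1.68. In group 4, Hoxb4 differed by 2.55 and Hoxd4 by 0.75, and Hoxc4 by -1.88 and Hoxa4 by -0.93. In group 9, Hoxb9 differed by 0.44, against -0.97 for Hoxc9, -1.83 for Hoxa9 and -2.48 for Hoxd9. In each of these groups the Hoxb member had the highest phase change in young mice, though not the highest FPKM in every library. Of the 11 Hoxa members, 10 were lower in anagen at each age, with medians of -0.30 and -0.26, but in TPM 6 were lower in young and 8 in old mice. All 9 Hoxb members with a value were higher at each age under each scaling run. As deposited, the counting intervals of the phase ratio held 1 for Hoxb1 and Hoxb9 in old mice.

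The 2 phase comparisons share no library, so their values can be set side by side. Of 36 members, 14 were higher in anagen in both ages, 18 were lower in both, and 4 (Hoxa3, Hoxa7, Hoxc6 and Hoxc11) had opposite signs. The changes had a Pearson r of 0.96 and a Spearman rho of 0.93 across the 36 genes (r of 0.95 without Hoxc13); genes are not independent replicates, and each comparison spans the same contrast of tissue makeup. The 7 genes higher by at least 1 in both were Hoxb2, Hoxb3, Hoxb4, Hoxb6, Hoxb7, Hoxb8 and Hoxc13, and the 3 lower in both as deposited were Hoxa9, Hoxa10 and Hoxd9; in TPM Hoxa10 was at -0.82 in old mice.

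**Figure D4:**
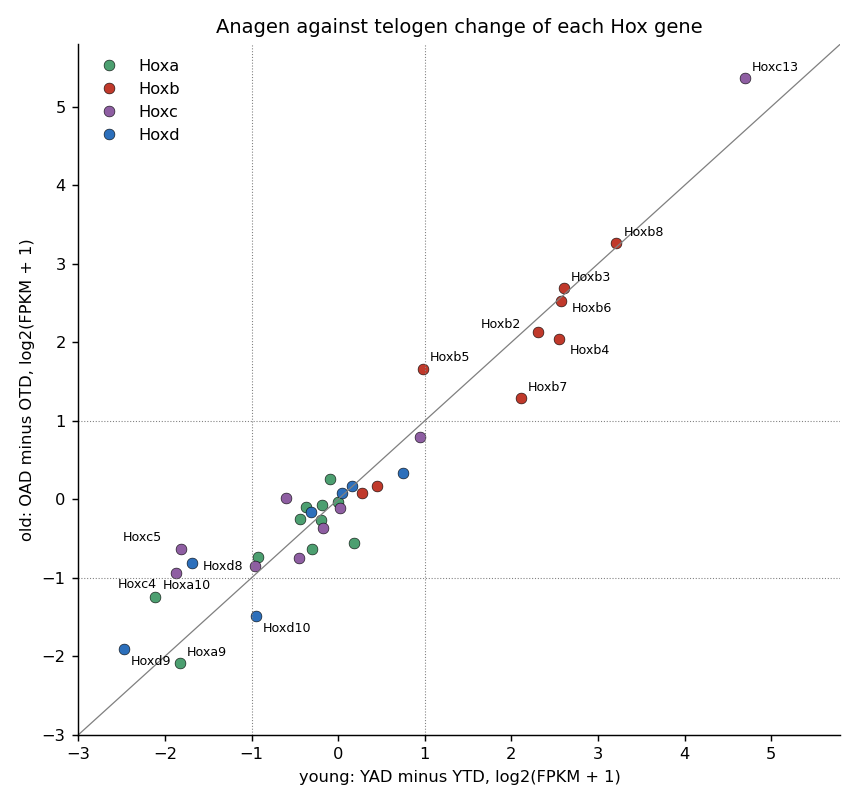
Anagen minus telogen difference of log2(FPKM + 1) for 36 Hox genes, in young mice (horizontal) and old mice (vertical), coloured by cluster. The solid line marks equal change and the dotted lines a change of 1; genes that pass it at either age are named. Hoxb2 to Hoxb8 lie to the upper right with Hoxc13 at 4.70 and 5.36, and Hoxa9, Hoxa10 and Hoxd9 to the lower left.

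Markers of other tissues differed along with these genes. The 19 skeletal muscle markers made up 5.58% (OTD) and 8.78% (YTD) of all FPKM in telogen and 2.04% (OAD) and 1.79% (YAD) in anagen, and 18 were lower by at least 1 in anagen in young mice and 15 in old mice. Fibroblast markers were lower in 9 of 13 (young) and 11 of 13 (old), and 1 was higher at each age; adipocyte markers were lower in 13 and 10 of 15, and endothelial markers in 12 of 12 at each age. Macrophage markers were lower in 9 of 11 at each age. Epidermal markers were higher in 11 and 10 of 13, melanocyte markers in 9 of 10 at each age and dermal papilla markers in 6 and 5 of 10, with 1 and 2 lower. In TPM, 3 fibroblast, 4 adipocyte and 4 endothelial markers were lower by at least 1 in young mice, and 9, 5 and 10 in old mice. The summed level of the epidermal markers ran from 0.00666 to 0.0107% in telogen and from 0.336 to 0.378% in anagen. The part of these tissues in the Hox differences was not tested.

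The partners and regulators of Hox proteins were examined next. The 9 cofactor genes were the Pbx, Meis and Pknox families, whose products bind DNA beside Hox proteins. As deposited, none was higher by at least 1 in anagen, while 1 was lower in young and 2 in old mice. Over all genes 16.1% were higher at each age, and 16.7% (young) and 15.6% (old) were lower. In TPM 2 cofactors were higher and 1 lower in young mice, and 1 higher and 0 lower in old mice. Pknox2 was at 7.41 FPKM in OTD and 18.0 in YTD, against 2.20 in OAD and 2.22 in YAD. Meis3 was at 4.02, 2.41, 1.16 and 1.08 FPKM, and its change of -1.22 passed the threshold in old mice. The other 7 cofactors, Meis1 among them, changed by less than 1 at both ages as deposited.

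The next list held genes that regulate Hox chromatin and the Cdx transcription factors, of which only Cdx1 had a value, 0.231 FPKM in OAD. In this list 7 of 18 genes with a value were higher by at least 1 in young anagen and 6 of 19 in old anagen. At each age 1 was lower. Over all genes 16.1% were higher at each age, and 16.7% (young) and 15.6% (old) were lower. In TPM 10 of 18 and 9 of 19 were higher and none was lower. Cbx2, a Polycomb reader of the repressive mark, was at 1.11 FPKM in OTD and 1.31 in YTD, against 17.01 in OAD and 15.3 in YAD. Ezh2, the enzyme that writes that mark, was at 2.12, 2.09, 10.2 and 12.6 FPKM. Kmt2d, a methyltransferase of active enhancers, was at 3.64, 8.46, 23.2 and 25.1 FPKM. The lower gene was Cbx7, at 21.5, 16.5, 7.12 and 5.92 FPKM, which did not pass the threshold in TPM. Retinoic acid, a known inducer of Hox genes, was represented by 8 genes. Of these, Crabp2 and Rarg were higher by at least 1 at both ages, beside the same 16.1% of all genes. Rarg was at 15.1, 14.2, 61.1 and 63.1 FPKM.

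Of other positional transcription factors, 8 of 23 were lower and 3 higher by at least 1 in young anagen, and 7 of 24 were lower and 1 higher in old anagen, where 16.7% and 15.6% of all genes were lower and 16.1% were higher at each age. In TPM 5 were lower and 4 higher in young mice, and 5 lower and 1 higher in old mice. Tbx15, which sets dorsal and ventral skin regions, was at 65.7 FPKM in OTD and 118 in YTD, against 14.5 in OAD and 13.8 in YAD. Meox2 was at 30.8, 13.9, 4.44 and 3.30 FPKM. Markers of skeletal muscle, fibroblasts, adipocytes, endothelium and macrophages were mostly lower in the same comparison. With age in telogen, 1 of 21 positional genes was higher by at least 1 in OTD and 1 was lower, as deposited. Over all genes 1.67% were higher and 1.93% lower. Meox2 was higher in OTD than in YTD by 1.09. Pitx1 differed by -1.37, at 2.71, 8.60, 0.924 and 0.664 FPKM in OTD, YTD, OAD and YAD. In that comparison skeletal muscle markers were lower and endothelial, fibroblast and macrophage markers mostly higher. The part of any of these tissues in the Meox2 and Pitx1 differences was not tested. Alx4, a gene of craniofacial and limb patterning, was higher in anagen, at 0.181, 0.343, 3.22 and 3.74 FPKM.

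The comparison of old with young mice within a phase asks whether the Hox pattern differs with age. In telogen none of 34 members with a value changed by at least 1, where 3.6% of all genes did (1.67% higher and 1.93% lower in OTD). The median was -0.11 beside -0.03 for all genes, 12 members were higher and 22 lower in OTD (a median of 0.0398 in TPM without mitochondrial genes), and values ran from -0.98 (Hoxc5) to 0.76 (Hoxb7). For 15 members the 95% counting interval of the ratio left out 1. In anagen none of 35 changed by at least 1, where 1.18% of all genes did (0.727% higher and 0.454% lower in OAD). The median was -0.04 beside 0 for all genes, 16 were higher and 19 lower in OAD, and values ran from -0.58 (Hoxa6) to 0.40 (Hoxd9). For 10 members the interval left out 1.

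The widest age differences were in telogen and in the Hoxc cluster. Hoxc5 was 2.21-fold lower in OTD than in YTD (95% interval 1.87 to 2.64) and Hoxc4 2.01-fold lower (1.63 to 2.50), at the levels given above. In anagen the same genes differed little, with OAD to YAD ratios of 1.24 (0.962 to 1.61) and 1.08 (0.762 to 1.55). Hoxc13 was 2.30-fold lower in OTD (1.75 to 3.04), a change of -0.90, and 1.18-fold lower in OAD (1.14 to 1.22). Of the 10 other hair follicle genes listed with Hoxc13, 8 were also lower in OTD, 3 of them by at least 1, with a median of -0.72. Among hair shaft genes 14 of 15 were lower, 8 of them by at least 1, with a median of -1.001. Skeletal muscle markers were lower in OTD in 19 of 19, 4 by at least 1, while endothelial markers were higher in 12 of 12, fibroblast markers in 11 of 13 and macrophage markers in 10 of 11. In anagen, melanocyte markers were lower in OAD in 10 of 10 and macrophage markers in 11 of 11. Fibroblast markers were lower in 11 of 13, 3 by at least 1, and dermal papilla markers in 9 of 10. Adipocyte markers were higher in OAD in 15 of 15, endothelial markers in 12 of 12, skeletal muscle markers in 15 of 19 and epidermal markers in 11 of 13. The part of these tissues in the age differences was not tested.

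Some members were higher in old telogen with an interval above 1. Hoxb7 was 1.85-fold higher in OTD than in YTD (1.42 to 2.46), Hoxd10 1.83-fold (1.36 to 2.53) and Hoxc10 1.97-fold (1.10 to 3.58). Hoxa7 was 1.27-fold higher (1.05 to 1.53) and Hoxc8 1.24-fold (1.04 to 1.48). For the first 3, in anagen the ratios of old to young were 0.960, 1.22 and 1.76, and each interval held 1. Of the 9 Hoxb members with a value, 8 were lower in OAD than in YAD, with a median of -0.15. In TPM all 9 were, with a median of -0.30, but there the median of all expressed genes was -0.21, and relative to it the Hoxb median was -0.09. Hoxb3 was 1.31-fold lower (1.18 to 1.46) and Hoxb4 1.31-fold lower (1.18 to 1.45). For the Hoxb cluster as a whole, age differences are small beside those between phases. The widest age change of any Hoxb member was 0.76, and the median phase change of the cluster was over 2 at each age. This did not hold for every member outside Hoxb. Of those higher in OTD, Hoxc10, Hoxa7 and Hoxc8 had telogen age changes of 0.47, 0.30 and 0.28. Their phase changes were -0.46, 0.19 and -0.18 in young mice and -0.75, -0.56 and -0.36 in old mice. Of those lower in OTD, Hoxa3, Hoxc6 and Hoxc5 are examples, with telogen age changes of -0.45, -0.50 and -0.98. The phase changes of Hoxa3, Hoxc6 and Hoxc5 were -0.09, -0.60 and -1.82 in young mice and 0.26, 0.02 and -0.63 in old mice.

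**Figure D5:**
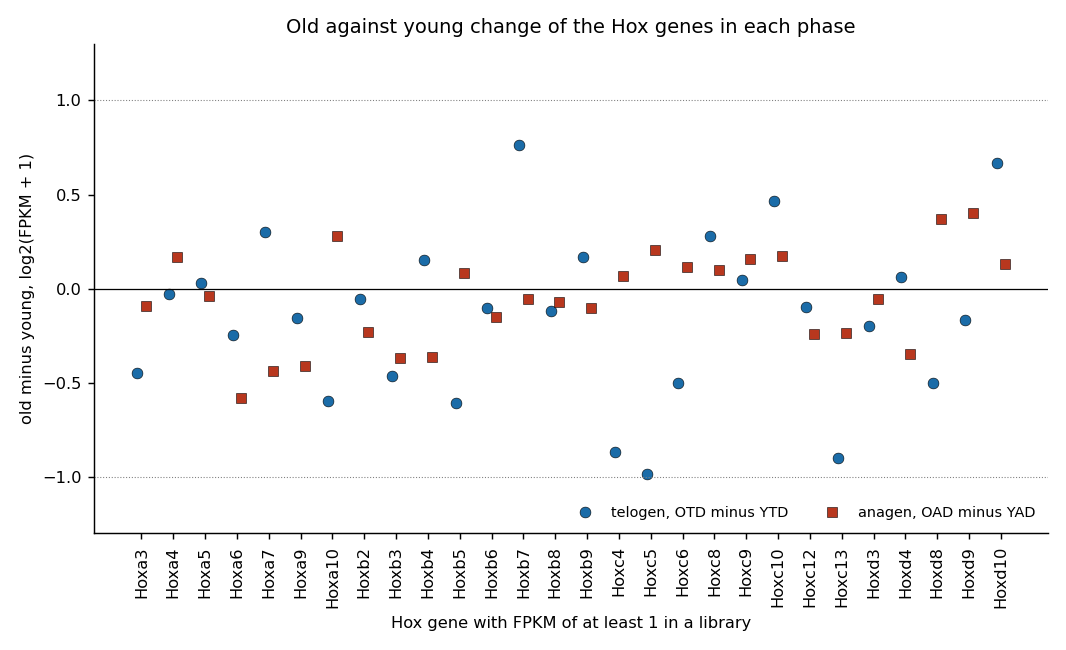
Old minus young difference of log2(FPKM + 1) in telogen (circles) and anagen (squares) for the 28 Hox genes that reach 1 FPKM in some library. Dotted lines mark a change of 1, which no gene reaches; the lowest value is -0.98 for Hoxc5 in telogen and the highest 0.76 for Hoxb7 in telogen.

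Some values carry a limit of the annotation. Listed gene spans overlap for 7 members: the span of Hoxa3 contains Hoxa4, Hoxa5 and Hoxa6, that of Hoxd3 overlaps Hoxd4, and Hoxa2 overlaps a predicted gene. The listed span equals the GENCODE M21 span for 27 of the 39 members, and Hoxc5 is not among them. In GENCODE M21 Hoxc5 overlaps Hoxc6, Hoxc8, Hoxc9 and Hoxc10 on the same strand, which the listed spans do not. A further limit is antisense transcription, since 12 members overlap an antisense gene in GENCODE M21, such as Hoxb3os at Hoxb2 and Hoxb3, and Hoxb5os at Hoxb5 and Hoxb6. The strand setting of the counting is not given in the sources used here, so reads of a member and of its antisense partner may not have been told apart.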

How the data were processed

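RNA of dWAT was sequenced in 4 libraries, 1 per group; groups come from the sample titles. Per library, the authors deposited the FPKM of 22913 genes, placed on GRCm38; the submitters' processing notes name bcl2fastq and TopHat2, and the annotation and strand setting are not given in the sources used here. Of the identifiers, 21750 were matched to a symbol. The length listed for a gene equals its coding length with the stop codon in 92.7% of matched genes, whereas low FPKM values step with transcript length; depth and fragments per gene were estimated from those steps and are approximate.

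Changes were computed as differences of log2(FPKM + 1), so that changes of low genes come out smaller, and counted at 1 in size; no filter was used. Exact Poisson and conditional binomial 95% intervals cover counting error only. The steps were tested on simulated data. Every member that reached 1 FPKM in some library, or changed by at least 1, was named, and of other lists at most the 3 widest changes per comparison. Members and lists were chosen with earlier results of these data known. Python 3.11.15 with numpy 2.4.6, pandas 2.3.3 and scipy 1.17.1 was used. The alternatives were pseudocount 0.1, filters at 1 FPKM or 3 fragments, 4 other scalings and a threshold of 0.5. Some values are not reported here.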

Additional observations from a re-analysis of the deposited data

Results flagged for a closer look

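For 3 members the old to young difference had opposite signs in telogen and anagen while both counting intervals left out a ratio of 1; each rests on 1 library per group, and the difference between phases was not tested. Hoxa7 was higher in old mice by 0.30 in telogen and differed by -0.44 in anagen (log2 of FPKM + 1). Hoxd8 differed by -0.50 in telogen and was higher in old mice by 0.37 in anagen. Hoxd9 differed by -0.17 in telogen and was higher in old mice by 0.40 in anagen; its telogen value was 0.05 when levels were rescaled to TPM without mitochondrial genes.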

How the results depend on the processing

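No paired analysis was possible because each group has 1 library. Of 560 single-member values under another scaling or pseudocount, 476 moved by less than their counting error, 84 moved by more, and no change of at least 1 turned its sign. In telogen, the count of members changed between ages went from 0 to 2 with a pseudocount of 0.1, to 1 with TPM without mitochondrial genes and to 9 at a threshold of 0.5, and the median to 0.0398 with TPM without mitochondrial genes; in anagen the count went from 0 to 1 at 0.5. For phase in young mice, the count of changed members went from 13 to 23 with a pseudocount of 0.1 and to 20 at 0.5, and the median to 0.22 in TPM, 0.0037 in TPM without mitochondrial genes and 0.0082 without hair keratin, keratin-associated protein and muscle genes as well. For phase in old mice, the count went from 12 to 21 at 0.5, and the median to -0.28 with a pseudocount of 0.1, -0.26 at FPKM of at least 1 and 0.12 in TPM. In TPM the median phase change of all expressed genes was 0.76 in young and 0.58 in old mice (0.03 and 0.05 as deposited); relative to it the Hoxb median was 2.31 and 1.95. In TPM, Hoxd8 (-0.88, young) and Hoxa10 (-0.82, old) no longer passed the threshold, and Hoxd4 (1.49, young) and Hoxb9 (1.07, young) did.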
